A study of Mus musculus with 17 samples.

Results

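The data described here are the resting lavage transcriptome of untreated A/J mice: 6 of the 17 arrays of the series, chosen because their titles name them as normal controls. Bronchoalveolar lavage washes cells out of the airways and air spaces with fluid, and total RNA of those cells was labelled and hybridised to Affymetrix arrays. A/J is an inbred strain prone to lung tumours, supplied by Jackson Labs. The controls were untreated and age matched to mice given urethane, a lung carcinogen, whose arrays are not compared here. The labels give no age, sex or lavage procedure, nor do they say whether each numbered array comes from its own mouse, so spread between arrays may be biological or technical. The arrays are called control 6_13, 14, 33, 35, 36 and 37. Control 6_13 carries 2 numbers and may be a pool of 2 mice, which the labels do not settle, and it was counted as 1 sample.

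Alveolar macrophages live on the air side of the lung wall and are the main cell type in the lavage of a healthy mouse. They take up dust, microbes and spent surfactant, the lipid film that keeps air spaces open. Granulocyte-macrophage colony-stimulating factor (GM-CSF) and the lipid-sensing nuclear receptor PPAR-gamma maintain them. In mice they are told from other macrophages by the integrin Itgax, the lectin Siglecf and the scavenger receptor Marco. Monocyte-derived and interstitial macrophages are richer in complement C1q, Apoe, Cx3cr1 and MHC class II.

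Values are log2 of the array signal plus a small constant (19.15). A difference of 1 is thus about a 2-fold change in signal for bright genes and more than that for dim ones. A gene was taken as above background on an array when its signal passed the 95th percentile of 86 probe sets for olfactory, vomeronasal and taste receptors (77 genes), which these cells should not use. Of 18193 genes, 8422 (46.3%) were above background on all 6 arrays, 11281 on at least 2 and 5205 on none (0 arrays). The count per array ran from 9588 on control 14 to 11213 on control 36. The 20th percentile signal ran from 15.7 to 28.4, the trimmed mean was 500 on every array, and the ratio of 3' to 5' signal was 1.06 to 1.20 for actin and 0.767 to 1.03 for Gapdh. The 18S ribosomal RNA control probe ran much wider, from a signal of 335 on control 6_13 to 35187 on control 33. Controls 6_13 and 14 were scanned on 1 day and the other 4 on another, and the chip lot changed with the day. The Gapdh ratio was 0.767 and 0.776 on controls 6_13 and 14 and 0.899 to 1.03 on the other 4. The 18S signal was 335 and 558 on controls 6_13 and 14 and 1548 to 35187 on the other 4. No 2 arrays held the same values.

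The labels name lavage cells as the source. Of the 17 cell type lists, those of alveolar macrophage and general macrophage genes had the highest median percentiles (99.1 and 98.9). All 6 alveolar macrophage markers were above background on all 6 arrays. Chil3, a secreted chitinase-like lectin, was lowest at 14.84 (control 36), had a median of 15.09 and was highest at 15.34 (control 33). Mrc1, the mannose receptor, had a mean of 14.80 ± 0.14 (SD, n = 6), Itgax 14.12 ± 0.21 (SD, n = 6) and Marco 13.20 ± 0.25 (SD, n = 6). On these probe sets the markers lay within less than 2-fold across arrays. A second probe set of Marco ran from 11.47 (control 37) to 12.92 (control 6_13). Fabp1 and Car4 were set apart by control 36. Fabp1, a fatty acid binding protein, was at 13.36 there and at 14.09 to 14.54 elsewhere. Car4, a membrane-bound carbonic anhydrase, was at 14.31 there and at 12.04 to 12.82 elsewhere, and both of its probe sets were highest on control 36.

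A field of the labels also calls every sample normal mouse lung tissue. Several defining genes of the lung wall were at background: Pecam1 (endothelial adhesion), Cldn5 (endothelial tight junctions), Col1a1 and Col3a1 (fibrillar collagens) passed it on 0 of 6 arrays, and Cdh5 (endothelial cadherin) and Dcn (a fibroblast proteoglycan) on 1. Their means were 5.16 for Pecam1, 5.64 for Cldn5, 5.94 for Col1a1 and 6.06 for Col3a1, against 7.47 for the median gene. Of 16 endothelial genes 8 were above background on 0 arrays, 6 on at least 2 and 2 on all 6 (Flt1 at 10.47 and Vwf at 10.36). Of 16 fibroblast and smooth muscle genes 7 were above on 0 arrays, 2 on at least 2 and 1 on all 6 (Acta2 at 9.12). For all 18193 genes these counts were 5205, 11281 and 8422.

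**Figure D1:**
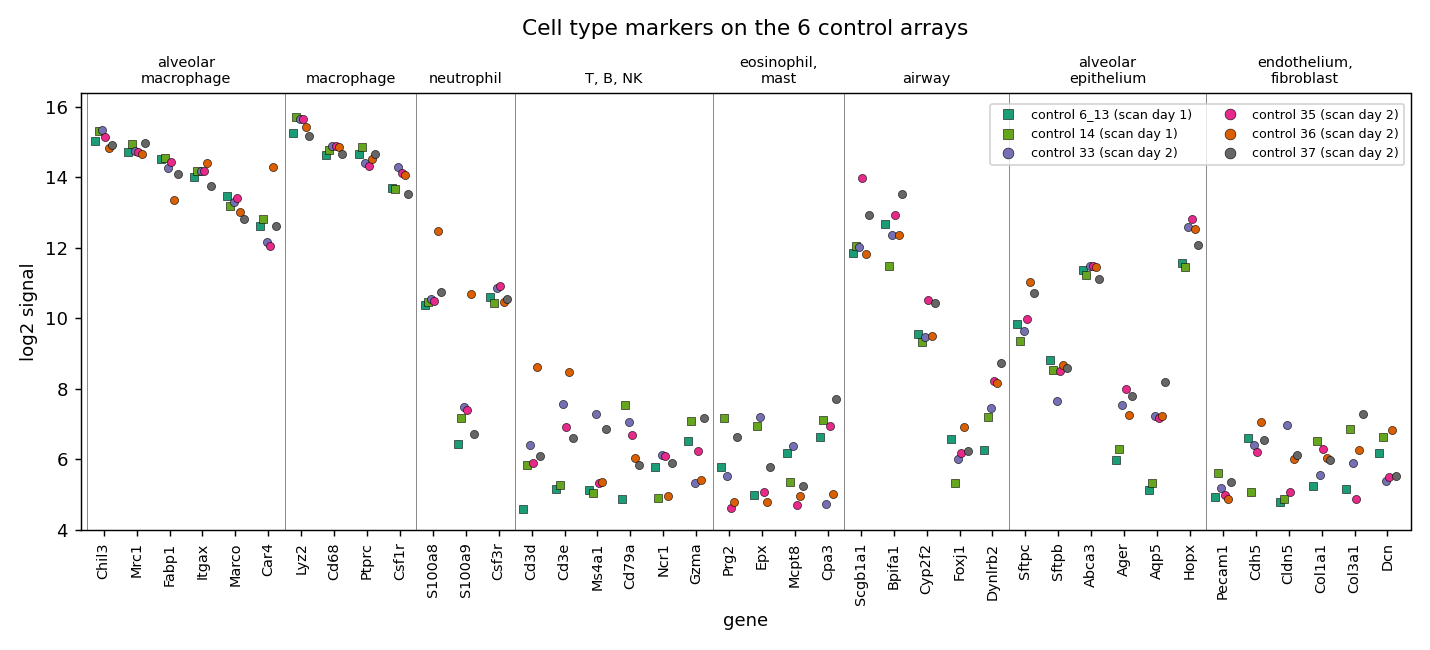
Log2 signal (vertical axis) of cell type markers (horizontal axis, grouped by cell type) on the 6 control arrays; each point is 1 array, squares are scan day 1 and circles scan day 2. Alveolar macrophage and macrophage markers lie between 12.04 and 15.71 on every array, airway genes such as Scgb1a1 are high, and the plotted endothelial and fibroblast markers sit at the bottom.

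The brightest genes were those of cytoskeleton, protein synthesis, lysosome and macrophage. Ranks here are ranks of signal, which also depends on how well each probe set hybridises. The highest mean was that of Tmsb4x, the actin monomer binding peptide, at 15.70 ± 0.15 (SD, n = 6). Lyz1 and Lyz2, the lysozymes, followed at 15.66 and 15.49, with the ferritin heavy chain Fth1 at 15.57 and the intermediate filament Vim at 15.54. Among the top 100, which reached down to 14.41, 31 were ribosomal protein genes. The list of 24 alveolar macrophage genes gave 7 of the 100 and the list of 27 lysosome genes gave 7.

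Outside translation and cytoskeleton, the top 25 included the cathepsins Ctss (15.34), Ctsd (14.99), Ctsz (14.98) and Ctsc (14.98), which digest protein in endosomes and lysosomes. Psap, the precursor of the saposins that help break down sphingolipids, was at 15.28 ± 0.14 (SD, n = 6). Lgals3, a galectin of macrophages, was at 15.17 and the chemokine Ccl6 at 15.15 ± 0.16 (SD, n = 6). Lpl, the enzyme that frees fatty acids from triglyceride, ran from 14.76 (control 37) to 15.02 (control 33) with a median of 14.90. Cd9, a tetraspanin, was at 15.09 ± 0.16 (SD, n = 6). Each of these varied by less than 2-fold over the 6 arrays.

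Lyz1 needs care. Its 3 probe sets had means from 7.90 to 15.66. The bright ones carry a suffix that marks probes that may bind other transcripts, so their signal may include that of Lyz2. The probe set at 7.90 is the 1 without that suffix, so the rank of Lyz1 is uncertain. The 2 genes lie next to each other on chromosome 10. Their promoter windows (RefSeq, GRCm38.p6, 250 bases before to 50 after the start, minus strand) are shown with that of Chil3. Lyz2 and Chil3 are among the brightest genes of the resting cells, and Lyz1 is shown as the neighbour of Lyz2. Capitals mark GGAAGT on either strand (ACTTCC on the printed strand), a core bound by ETS factors such as PU.1, the product of Spi1. Lyz2 is at chr10:117282223-117282522, Lyz1 at chr10:117292819-117293118 and Chil3 at chr3:106167515-106167814.
Lyz2: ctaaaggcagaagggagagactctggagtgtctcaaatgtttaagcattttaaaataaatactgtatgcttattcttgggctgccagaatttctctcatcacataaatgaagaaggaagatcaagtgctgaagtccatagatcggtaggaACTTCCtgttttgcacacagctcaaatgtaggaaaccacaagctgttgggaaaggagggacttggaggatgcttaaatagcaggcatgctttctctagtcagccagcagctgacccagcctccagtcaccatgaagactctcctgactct
Lyz1: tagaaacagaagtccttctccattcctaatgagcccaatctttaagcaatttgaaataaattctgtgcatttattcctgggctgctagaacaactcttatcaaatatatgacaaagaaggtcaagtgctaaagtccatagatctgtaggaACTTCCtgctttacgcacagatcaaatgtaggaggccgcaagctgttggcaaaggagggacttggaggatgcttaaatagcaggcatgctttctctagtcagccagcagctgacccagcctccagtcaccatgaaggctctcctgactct
Chil3: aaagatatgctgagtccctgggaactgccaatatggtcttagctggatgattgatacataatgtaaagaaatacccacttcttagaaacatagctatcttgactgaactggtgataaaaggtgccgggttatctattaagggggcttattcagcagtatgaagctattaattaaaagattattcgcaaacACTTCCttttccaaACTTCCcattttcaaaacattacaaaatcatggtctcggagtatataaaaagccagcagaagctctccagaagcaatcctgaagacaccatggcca
Set base by base without gaps, the lysozyme windows were identical at 201 of 300 positions (67.0%), and each held 1 match at the same place in both. Chil3 held 2. The motif occurred in 23.8% of all 32851 promoter windows and in 7 of the 23 windows (30.4%) of alveolar macrophage genes. Those windows belong to 20 genes, of which 7 held the motif. A match describes letters in the window and is no evidence of binding. Spi1 itself had a mean signal of 13.27 ± 0.19 (SD, n = 6).

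The alveolar macrophage program was bright and even across the arrays. Of 24 listed genes measured, 23 were above background on all 6 arrays, against 46.3% of all genes. The median member stood between the 98.96 and 99.18 percentile of all genes on every array. Siglecf had a mean of 13.48 ± 0.20 (SD, n = 6) and Pparg, the nuclear receptor, 12.51 ± 0.14 (SD, n = 6). Il18, an inflammasome-processed cytokine, was at 14.43 ± 0.10 (SD, n = 6). Krt79 (14.51) and Krt19 (14.04), keratins usually taken as epithelial, and Plet1 (14.63) were among the bright members. The median SD over the 24 was 0.210, against 0.304 over all 11281 genes that passed background on at least 2 arrays. Spread falls with signal, and the median SD was 0.202 over the brightest 2820 genes. The list was thus about as even as other bright genes.

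The exceptions included Abcg1, Bhlhe41, Car4, Cidec and Fabp1. The second probe set of Fabp1 ran from 12.78 (control 36) to 14.75 (control 6_13). Abcg1, which exports cholesterol, ran from 11.27 (control 6_13) over a median of 13.65 to 14.10 (control 36). The 2 arrays of scan day 1 were the low ones on both probe sets of Abcg1, but the other probe set ran only from 11.81 to 12.34. Bhlhe41, a transcription factor of alveolar macrophages, was at 5.90 on control 14 and at 8.21 to 9.04 elsewhere. On its second probe set control 14 was not apart, at 7.08, and control 33 was lowest at 6.58. Cidec, a lipid droplet protein, was lowest on control 36, at 10.56.

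Genes for the uptake and digestion of lipid and debris were nearly all present. All 27 lysosome genes were above background on all 6 arrays, from Ctss down to Ctse at 9.23. So were 22 of 25 genes of lipid uptake, storage and efflux and 18 of 19 of surfactant handling and GM-CSF signalling. Over all genes the share was 46.3%. Plin2, which coats lipid droplets, was at 14.80 ± 0.14 (SD, n = 6). Npc2 (14.28), which moves cholesterol out of the lysosome, and Lipa (14.25), which hydrolyses cholesterol esters there, were also high. The GM-CSF receptor chains Csf2ra and Csf2rb had means of 13.78 and 13.64. Tgfbr2 and Tgfbr1, receptors of TGF-beta, were at 13.94 and 13.52.

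Receptors for particles and dying cells were more mixed: 20 of 28 scavenger and phagocytic receptors were above background on all 6 arrays and 3 on 0. For all 18193 genes these counts were 8422 and 5205. Clec7a, the beta-glucan receptor, was at 14.78 ± 0.16 (SD, n = 6), and the receptor tyrosine kinases Axl (13.94) and Mertk (12.98), which take part in clearing dying cells, were bright. Cd163, the haemoglobin scavenger receptor, passed background on 1 array, with a range from 4.55 (control 6_13) to 7.76 (control 36). Timd4, a phosphatidylserine receptor of resident macrophages in other tissues, passed on 3, at a mean of 6.79. The general macrophage genes Cd68 (14.79), Csf1r (13.90) and Ptprc (14.58, also known as CD45) were high on every array, whereas Itgam, the integrin that alveolar macrophages carry little of, had a mean of 8.23 ± 0.70 (SD, n = 6).

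Among transcription factors, Cebpb had a mean of 14.27, Cebpa 13.08 and Tfec 12.71. Of 22 factors 18 were above background on all arrays, against 46.3% of all genes. Gata6, a factor of peritoneal macrophages, passed on 4 arrays and Runx3 on 1. Cytokine genes split: Ccl6, Il18, Tgfb1 (13.09) and the interleukin-1 receptor antagonist Il1rn (12.31) were bright. Inflammatory cytokines were far lower, with Tnf at 8.10 and Il1a at 7.84. Il6 (5.30) and Il10 (5.74) were above background on 0 arrays. The immediate early gene Fos, which handling of cells can induce, was at 13.23 ± 0.20 (SD, n = 6), and Dusp1 at 12.41 ± 0.60 (SD, n = 6).

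Genes of the cell cycle were not silent. Of 34 measured, 32 were above background on all 6 arrays, against 46.3% of all genes. Among the 32 were Mki67 (11.17 ± 0.17, SD, n = 6), Top2a (10.38 ± 0.16, SD, n = 6) and the cyclin Ccnb2 (10.16 ± 0.32, SD, n = 6). The list's median percentile was 76.4. The arrays do not tell a small share of dividing cells from a low level in many, and in these bulk samples fewer cells of a type and less RNA per cell cannot be told apart for any list. Antioxidant genes were high, with Txn1 at 14.60, Mt1 at 14.52 and Gpx1 at 14.41. Interferon-stimulated genes were mid-range (median percentile 59.3), with Mx2 at background on all arrays and Ifi35 at 11.98 ± 0.11 (SD, n = 6).

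**Figure D2:**
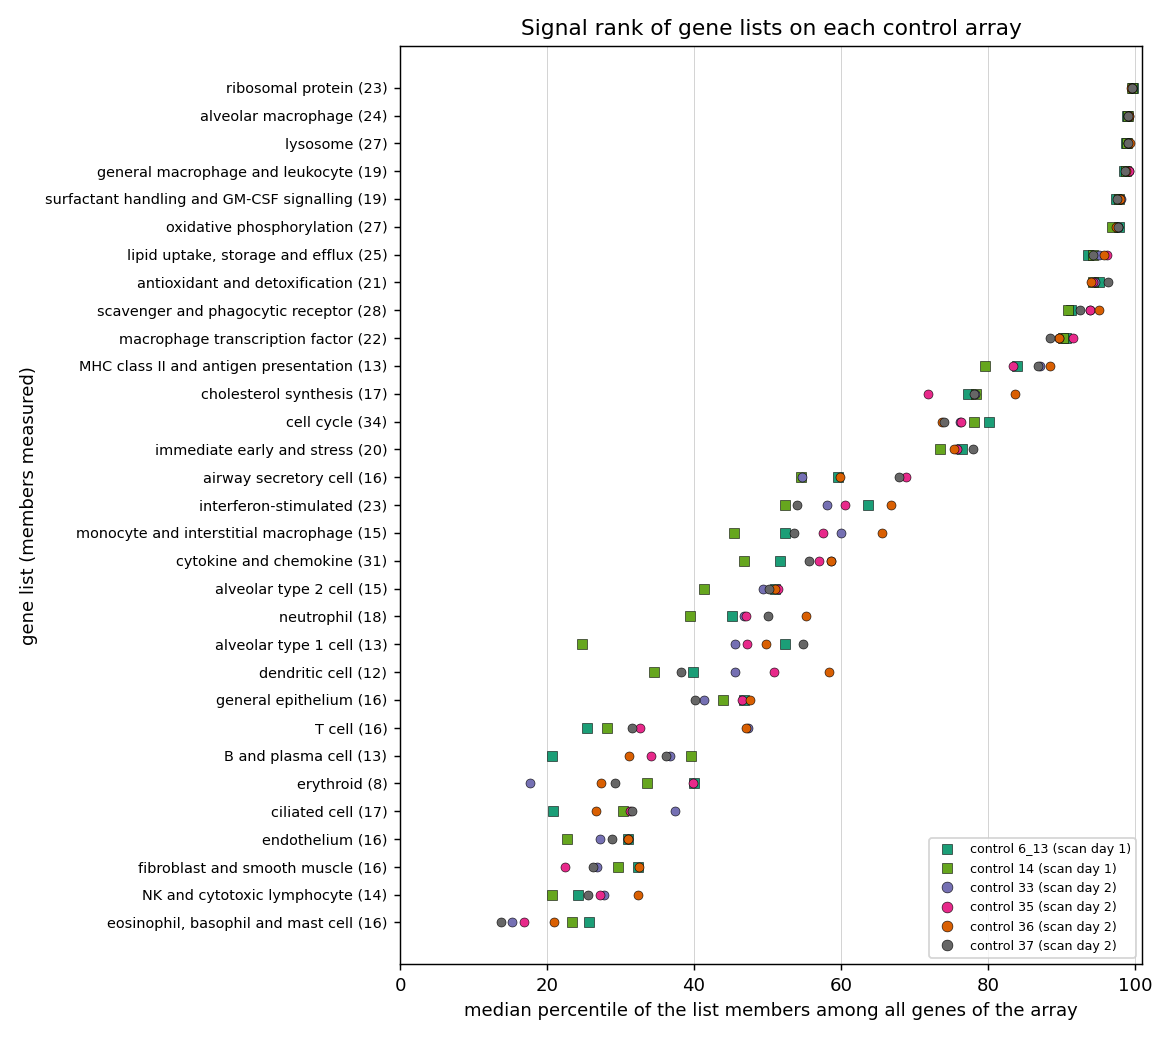
Median percentile of the members of each gene list among all 18193 genes (horizontal axis), on each of the 6 control arrays (points), for 31 lists (vertical axis, members measured in brackets). The alveolar macrophage, general macrophage, lysosome and ribosomal lists lie above 98 on every array, while lists of lymphocytes, granulocytes other than neutrophils, endothelium and fibroblasts lie under 48.

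Lymphocyte genes were low in signal and differed by array. The median percentile was 35.4 for 16 T cell genes, 33.1 for 13 B and plasma cell genes and 26.3 for 14 NK and cytotoxic genes. Of these 1, 2 and 0 were above background on all arrays, and 10, 4 and 4 on at least 2. Over all 18193 genes 8422 were above on all arrays and 11281 on at least 2. The T cell count on at least 2 arrays was thus near the share over all genes. Il7r, the interleukin-7 receptor chain, had a mean of 9.16 and was at 10.83 on control 36, 9.42 to 10.06 on the other 3 arrays of scan day 2 and 7.26 and 7.96 on scan day 1. Thy1, a surface glycoprotein of T cells, was at 8.88 on control 36, at most 7.81 on the rest of scan day 2 and 5.12 on both arrays of scan day 1. Cd3d, a T cell receptor chain, passed on 1 array, control 36, at 8.61, with 4.60 to 6.40 elsewhere. Cd3e was at 8.48 on control 36 and 5.17 to 7.56 elsewhere. Ms4a4b, a T cell gene, was also highest on control 36 (9.29), with control 33 at 8.89 and control 37 lowest at 5.14. The B cell genes Cd79a and Ms4a1 passed on 0 and 1 arrays, and the NK genes Ncr1 and Gzma on 0.

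Cd2 and Cd22 stood out inside these lists. Cd2, an adhesion receptor of T cells, had a mean of 13.34 ± 0.27 (SD, n = 6), at the 98.3rd percentile. Cd22, a sialic acid binding receptor of B cells, was at 12.94 ± 0.06 (SD, n = 6), the 97.4th, and its second probe set at 10.67 to 11.50. Cd2 was highest on control 33 (13.64) and lowest on control 37 (12.90), whereas Cd3d and Cd3e were highest on control 36.

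Granulocyte genes differed by list, and control 36 was the array apart for several neutrophil genes. The median percentile was 47.3 for 18 neutrophil genes and 19.3 for 16 eosinophil, basophil and mast cell genes. Of the 18 neutrophil genes 7 were above background on all 6 arrays, 11 on at least 2 and 5 on 0. For all 18193 genes these counts were 8422, 11281 and 5205. The granule proteins Elane and Mpo (5.48 and 6.31) were above background on 0 arrays. Csf3r, the G-CSF receptor, was even, at 10.64 ± 0.21 (SD, n = 6). S100a8 and S100a9, which together form calprotectin, were at 12.48 and 10.71 on control 36, with 10.37 to 10.75 and 6.42 to 7.49 elsewhere. The protease inhibitor homologs Wfdc21 and Wfdc17 were at 14.35 and 14.75 there and at 12.44 to 13.07 and 11.19 to 12.88 elsewhere. The summed signal of the neutrophil list was 61223 on control 36 and 14729 to 22506 on the others. Wfdc21 and Wfdc17, bright on every array, belong to that list, so the sum rests largely on them. Of 16 eosinophil, basophil and mast cell genes, 12 were above background on no array (0), against 5205 of all 18193 genes. Epx, Prg2 and Mcpt8 were among the 12.

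Airway secretory genes were the clearest epithelial signal. Scgb1a1, the main secretoglobin of club cells, ran from 11.82 (control 36) over a median of 12.04 to 13.97 (control 35). Bpifa1, a secreted airway defence protein, was at 12.56 ± 0.68 (SD, n = 6) and Cyp2f2, the club cell cytochrome, at 9.80 ± 0.53 (SD, n = 6). Controls 35 and 37 were the 2 highest for all 3. Scgb3a2 and Cbr2 were also highest on control 35, at 12.14 and 12.05. The summed signal of the 16 secretory genes was 39733 on control 35, 30063 on control 37 and 10455 to 16126 on the other 4 arrays. Muc5ac, the goblet cell mucin, was at background on all 6.

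Ciliated cell genes were low (median percentile 29.7): Foxj1, their master regulator, passed on 1 array and Dynlrb2 on 4. Alveolar type 2 genes were intermediate. Sftpc, the surfactant protein of these cells, ran from 9.35 (control 14) over a median of 9.91 to 11.04 (control 36), and its second probe set was near background with a mean of 5.24. Sftpb was at 8.47 ± 0.41 (SD, n = 6). Abca3, which loads lipid into surfactant stores, was at 11.36 ± 0.16 (SD, n = 6). Napsa, a protease that processes surfactant protein, was at 12.27 on control 37 and at 10.47 to 10.78 elsewhere. Of type 1 genes, Ager and Aqp5 had means of 7.15 and 6.72, whereas Hopx was at 12.18 ± 0.57 (SD, n = 6).

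Epcam and Cdh1 had the highest signals of the 16 general epithelial genes. Epcam had a mean of 12.53 ± 0.25 (SD, n = 6), while its second probe set averaged 8.78. Cdh1, E-cadherin, was at 12.02 to 12.19 on controls 6_13, 14 and 37 and at 10.71 to 10.89 on 33, 35 and 36, with no values between. Krt8 and Krt18, keratins of simple epithelium, were at 8.05 and 8.07, and Cldn18 passed on 3 arrays. Cdh1 did not follow Scgb1a1 across arrays, since control 35 was highest for Scgb1a1 and lowest for Cdh1.

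Of 8 red cell genes 1 was above background on all 6 arrays and 4 on 0, against 8422 and 5205 of all 18193 genes. Alas2, the haem synthesis enzyme of red cell precursors, was at 11.75 on control 6_13 and 7.21 on control 36, with a median of 9.25. Hbb-b2, a beta globin, was also highest on control 6_13, at 10.47, and lowest on control 36, at 5.76. Its dimmer probe set did not follow, being highest on control 37 (7.55) and lowest on control 14 (5.06). Hba-a1, an alpha globin, ran only from 6.76 to 7.16, and the mean of the list was highest on control 14, at 7.07. The labels give no sex. The Y-linked genes Eif2s3y (10.76), Kdm5d and Uty (8.91) were above background on all 6 arrays, and Xist, the RNA of the inactive X, on 1.

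Most genes were even between arrays. Over the 11281 genes the median SD was 0.304, and it went from 0.672 in the dimmest 2821 genes by mean signal to 0.202 in the brightest 2820. The highest array exceeded the lowest by at least 4-fold for 1321 genes (11.7%), of which 1135 were among the dimmest 2821. The pair correlation ran from 0.914 (14 with 36) to 0.965 (33 with 35), across genes, which are not independent replicates. Controls 33, 35 and 36 correlated at 0.959 to 0.965 with each other. Control 37 correlated at 0.931 to 0.937 with those 3 and at 0.953 and 0.940 with 6_13 and 14, although it was scanned on the same day as those 3.

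The steadiest bright genes included Snrpg, a core protein of the splicing machinery, at 12.88 to 12.94 (SD 0.02, n = 6), the lysosomal sialidase Neu1 (SD 0.03), the biliverdin reductase Blvra (SD 0.04) and the transcription factor Stat6 (12.18, SD 0.05). Sod2, the mitochondrial superoxide dismutase, was at 12.09 to 12.20. On none of these did an array stand out.

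**Figure D3:**
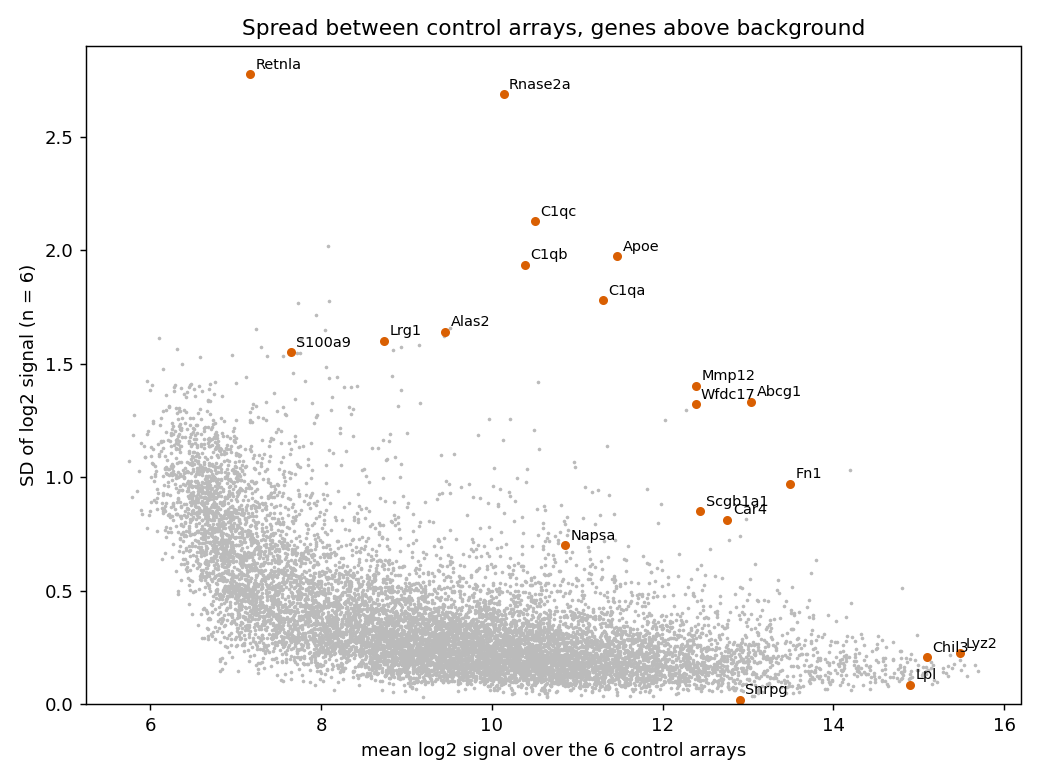
SD of log2 signal over the 6 control arrays (vertical axis) against mean log2 signal (horizontal axis) for the 11281 genes above background on at least 2 arrays; orange points are named genes. Spread falls with signal, Snrpg lies at 0.02, and Rnase2a, Retnla, the C1q genes and Apoe lie far above other genes of their brightness.

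The widest spread among bright genes was in complement and macrophage genes that were high on controls 33, 35 and 36. Rnase2a, an eosinophil-associated ribonuclease also made by macrophages in mice, was at 13.66, 12.17 and 11.70 on controls 33, 35 and 36. It was at 7.35 to 8.01 on the other 3, a highest to lowest ratio of 79.0 in signal plus the constant. C1qa, C1qb and C1qc, which form the recognition part of complement, were also highest on these 3 arrays and lowest on control 14. C1qc was at 12.46, 12.29 and 12.10 on 33, 35 and 36, at 9.85 on 37, at 9.07 on 6_13 and at 7.24 on 14. Apoe, the lipid carrier, was at 13.11 to 13.46 on 33, 35 and 36, at 10.30 on 37 and at 9.39 to 9.40 on 6_13 and 14. Control 37 thus sided with the 2 arrays of the other scan day for these genes.

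C1qb and C1qc also lie next to each other, on chromosome 4, and their promoter windows are shown because the genes shared 1 pattern across arrays; capitals again mark the ETS core. C1qb is at chr4:136886151-136886450 and C1qc at chr4:136892865-136893164, both on the minus strand.
C1qb: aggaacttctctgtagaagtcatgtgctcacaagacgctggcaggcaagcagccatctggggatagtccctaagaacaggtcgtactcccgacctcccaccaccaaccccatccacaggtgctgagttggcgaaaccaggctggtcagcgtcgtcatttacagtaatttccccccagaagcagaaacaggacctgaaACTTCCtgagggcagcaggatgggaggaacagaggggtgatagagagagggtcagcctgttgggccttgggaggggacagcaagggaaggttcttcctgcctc
C1qc: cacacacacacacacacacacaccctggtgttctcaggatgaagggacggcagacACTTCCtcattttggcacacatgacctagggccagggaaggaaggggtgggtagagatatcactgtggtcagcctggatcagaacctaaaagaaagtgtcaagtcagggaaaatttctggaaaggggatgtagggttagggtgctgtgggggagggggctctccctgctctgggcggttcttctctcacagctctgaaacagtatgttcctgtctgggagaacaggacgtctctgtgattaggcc
Each window held 1 match.

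The same division held for other macrophage genes. Igf1, the growth factor, was at 10.46 to 11.27 on 33, 35 and 36 and at 7.52 to 8.73 on the rest, with no overlap on any of its 4 probe sets. C3ar1, the receptor for C3a, was at 10.63 to 11.27 and 7.57 to 8.28. Ccl17, a chemokine for T cells, was at 9.63 to 10.53 and 7.31 to 7.58. Fn1, fibronectin, was at 14.19 to 14.48 on the 3 and lowest on control 6_13, at 12.16, while on its dimmer probe set the arrays overlapped. Mmp12, the macrophage elastase, was at 13.36 to 14.03 on the 3 and at 10.66 and 10.94 on controls 14 and 6_13, with 37 between. Fcgr2b, the inhibitory Fc receptor, was at 13.12 to 13.51 and 10.55 to 12.08. In none of these 6, on the probe set that stands for the gene, did the 2 sets of arrays overlap. Over all 11281 genes, 17.3% had controls 33, 35 and 36 all above the other 3 arrays and 13.3% all below, so such a division was common on these arrays. The genes and the division were chosen after the values were seen, so no test is given.

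Retnla, which encodes the secreted protein RELM-alpha, had the largest SD of all 11281 genes (2.77) at a mean under that of the median gene. It was at 11.18 on control 33, 9.98 on control 35 and 6.85 on control 36, against 4.65 to 5.40 on the other 3. Cx3cr1, the fractalkine receptor, was at 9.42 to 10.36 on the same 3 arrays and at 7.63 to 8.44 on the rest. MHC class II followed to a lesser degree: H2-Aa was at 14.26 to 14.48 on the 3 and at most 13.52 on the rest, and H2-Ea at 10.55 to 11.19 and 9.19 to 10.24. On the next probe set of H2-Ea the arrays overlapped, with control 33 at 10.45 and control 6_13 at 10.50. Ccr2, the monocyte chemokine receptor, ran from 7.65 (control 6_13) to 9.10 (control 36) with overlap between the 2 sets of arrays. On its next probe set they did not overlap, at 8.31 to 9.15 and 6.30 to 8.26. Fbp1, fructose bisphosphatase, was at 10.83 and 10.16 on 33 and 35, 8.05 on 36 and 5.84 to 7.04 on the rest.

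Beside these values, the summed signal of the 15 monocyte and interstitial macrophage genes was 47265 to 53835 on controls 33, 35 and 36 and 9245 to 13085 on 6_13, 14 and 37. That list holds C1qa, C1qb, C1qc, Apoe and Fn1, so the sum rests on them. The summed alveolar macrophage signal was 377199 to 428637 over the 6 arrays, with control 37 lowest and control 14 highest. Of its defining markers 0 of 6 were at background on any array. Whether the share of a cell type differed between the mice was not tested.

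**Figure D4:**
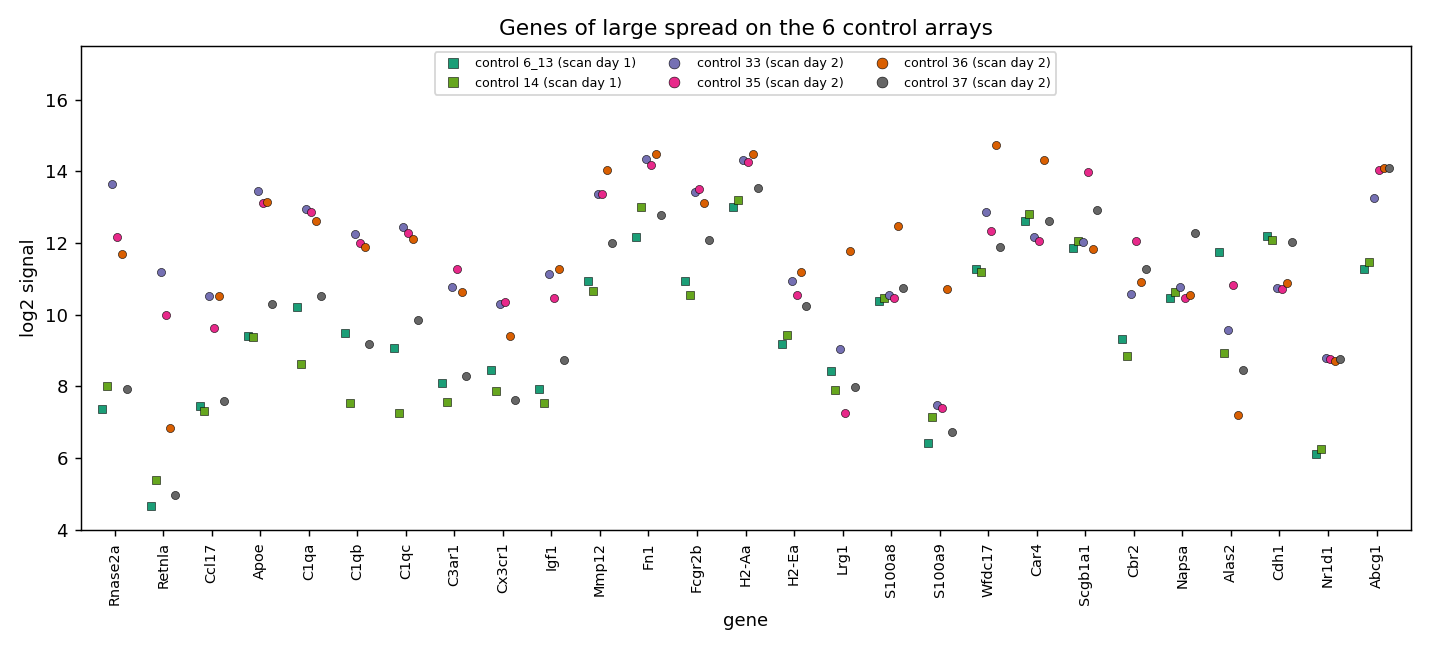
Log2 signal (vertical axis) of 27 genes of large spread (horizontal axis) on the 6 control arrays; each point is 1 array, squares are scan day 1 and circles scan day 2. Rnase2a, Apoe, the C1q genes and Igf1 are high on controls 33, 35 and 36, S100a9, Lrg1 and Wfdc17 on control 36, and Nr1d1 and Abcg1 divide by scan day.

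Single arrays also stood apart. Among the 11281 genes above background on at least 2 arrays, 5 (0.0443%) were at least 4-fold above all other arrays, all on control 36. At least 4-fold below all others were 38 (0.337%), 16 of them on control 14. Genes above background on 1 array alone are not in these counts. A further 28 such genes were at least 4-fold above the other arrays, 19 on control 14, 4 on 37, 3 on 36, 1 on 33 and 1 on 35, among them Ccl24 on control 33 (9.23) and Cd3d on control 36. Lrg1, a secreted glycoprotein of the acute phase, was at 11.77 on control 36 and 7.27 to 9.04 elsewhere. Fscn1, an actin bundler of mature dendritic cells, was at 10.56 there and at 7.14 to 8.08 elsewhere, but on its next probe set control 37 was as high as control 36 (8.78 on each). Ccl22, a dendritic cell chemokine, was at 9.86 there and 5.43 to 7.90 elsewhere. The mean log2 signal of the neutrophil, dendritic cell and T cell lists was highest on control 36, at 8.83, 8.61 and 8.12, against at most 8.30, 7.80 and 7.69 on the other arrays. It was also the array with the most genes above background, and its part in these values was not tested.

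Control 36 was the highest array for 40 of the 100 genes of largest SD, control 33 for 18, control 14 for 18, control 37 for 13, control 6_13 for 6 and control 35 for 5. Cholesterol synthesis genes were highest there too: Sqle, squalene epoxidase, was at 11.47 against 9.33 to 10.17, and Hmgcs1 at 13.26 against 12.22 to 12.71. The metallothioneins Mt1 and Mt2 were lowest there (13.93 and 11.57), with Mt2 highest on control 37 at 13.82. On control 37 a bright probe set of the RNA binding protein Hnrnpab was at 12.11, against 14.38 to 14.74 on the others. Another bright probe set of that gene was at 13.13 on control 37 and 13.18 to 13.44 elsewhere.

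The only contrast available within the controls was technical, scan day 2 (controls 33, 35, 36 and 37) against scan day 1 (controls 6_13 and 14). It coincides with the chip lot and with the range of label numbers, so these cannot be told apart from each other or from differences between the mice. limma gave 108 of 11281 genes (0.957%) with an adjusted p under 0.05, of which 92 (0.816%) were higher and 16 (0.142%) lower on scan day 2. A further measure, no overlap between the days, held for 1856 genes higher (16.5%) and 1148 lower (10.2%). An exact permutation test of 2 arrays against 4 cannot go below p = 0.0667.

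Nr1d1, the circadian repressor REV-ERB-alpha, divided by scan day. It was at 6.12 and 6.24 on scan day 1 and at 8.70 to 8.79 on scan day 2, which differ by 2.57 in log2 (SE 0.28, limma adjusted p = 0.0030). The days did not overlap, and within each the arrays were almost level. Tef, another gene of clock output, differed by 1.41 (SE 0.27, limma adjusted p = 0.038) on its brightest probe set, while a dimmer one was lower on all 4 arrays of scan day 2. Nr1d1 was named by rule for being among the largest rises past the threshold in this same contrast, so its difference is a selected one. Clock genes other than Nr1d1 were named after their values were seen. Dbp differed by 1.69 (limma adjusted p = 0.092), Nr1d2 by 0.71 (limma adjusted p = 0.137), Per1 by 0.66 (limma adjusted p = 0.210) and Per2 by 0.35 (limma adjusted p = 0.650), none of which passed. The labels give no time of day for the lavage.

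Other genes higher on scan day 2 were Anpep, an aminopeptidase of myeloid cells, by 2.27 (SE 0.20, limma adjusted p = 8.1e-04), and Abcg1, on its brighter probe set, by 2.50 (SE 0.22, limma adjusted p = 8.1e-04). On the other probe set of Abcg1 the days did not overlap either, but the shift was smaller (12.10 to 12.34 against 11.81 and 11.96). C1qc differed by 3.52 (SE 0.67, limma adjusted p = 0.038), although control 37 was nearer to scan day 1, and C1qa and Apoe missed the threshold (limma adjusted p = 0.057 for each). Fyb, an adaptor protein of immune cells, differed by 3.10 (SE 0.46, limma adjusted p = 0.019), and Gpr183, an oxysterol receptor, by 2.71 (SE 0.49, limma adjusted p = 0.033), while on the other probe set of each the days overlapped. Eng, a TGF-beta co-receptor of endothelium and macrophages, differed by 2.71 (SE 0.39, limma adjusted p = 0.017), and the days did not overlap on either of its probe sets. Chosen after their values were seen, the splicing kinases Clk4 and Clk1 differed by 1.85 and 0.91, the cyclin Ccnl2 by 1.02 and the splicing regulator Hnrnpl by 1.53, all past the threshold on the brightest probe set. Among the largest falls were Ampd2, AMP deaminase, at -1.73 (SE 0.20), Reep3 at -1.61 (SE 0.30), Sephs2, a selenium enzyme, at -1.43 (SE 0.14) and the zinc transporter Slc39a2 at -1.23 (SE 0.13). These values are of 1 probe set each. The other probe set of Ampd2 was level (8.89 to 9.28), and 1 of Sephs2 was higher on scan day 2 (10.07 to 10.50 against 9.71 and 9.99). Of Reep3 a second probe set was lower on all 4 arrays of scan day 2 (10.84 to 11.29 against 12.21 and 12.30), while the others overlapped. Of the 24 alveolar macrophage genes only Abcg1 passed, and their median difference was -0.05, against 0.04 over all genes tested.

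The count rested on single arrays and on the model. It was 3 without a variance trend and 22 with the mean of all probe sets of a gene. It was 1465 without control 37 (892 higher and 573 lower) and 3 without control 14, which leaves scan day 1 a single array. Without control 6_13, 33, 35 or 36 it was 25, 25, 12 and 27.

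**Figure D5:**
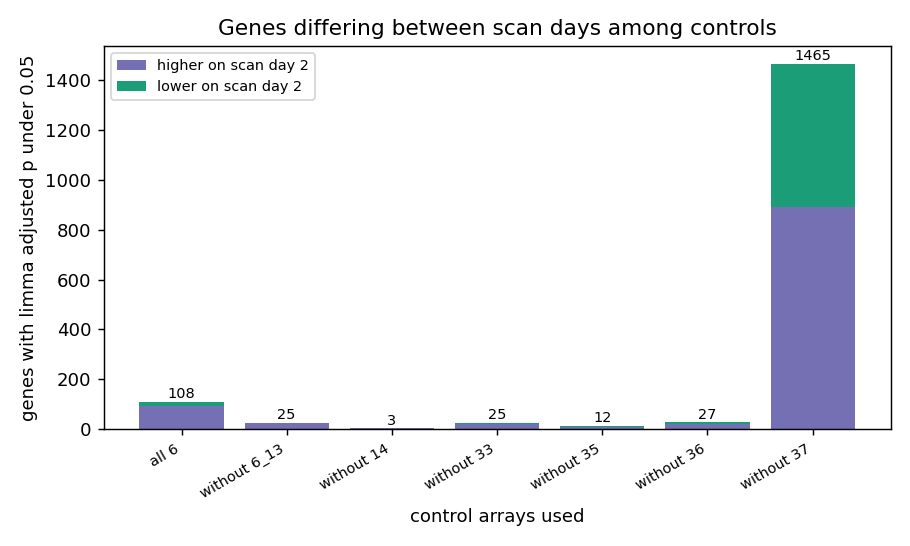
Number of genes with a limma adjusted p under 0.05 between scan days (vertical axis, from 0) with all 6 control arrays and with each array left out (horizontal axis), divided into genes higher and lower on scan day 2. The count of 108 becomes 1465 without control 37 and 3 without control 14.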

How the data were processed

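Affymetrix arrays were hybridised with RNA of lavage cells from A/J mice, 1 array per sample. The deposited values are intensity on a linear scale made with MAS5, per the submitters' processing notes, which give no version. Each control array had a mean of 500 after trimming 2% at each end, and was not rescaled. From the scan files only the day and the chip lot were read.

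Of 45101 probe sets, 64 were controls, 34945 had 1 gene symbol, 932 several and 9160 none in the platform annotation, and those without 1 symbol were not named. The RefSeq table (GRCm38.p6) held the ID of 18032 of the 18193 genes. Listed genes without a value are not analysed here. Log2 was taken after adding 19.15, the median of the arrays' 20th percentiles. Each gene was represented by its probe set of highest mean. The 11281 genes above background on at least 2 arrays entered the spread and the test. The number of arrays limits precision.

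The scan day contrast was fitted in R 4.3.3 by limma 3.58.1, with lmFit and a trended eBayes. Its p-values are two-sided and adjusted by Benjamini-Hochberg. On simulated data for this contrast (11281 genes) it recovered 27% of 2-fold and 65% of 4-fold changes. No list was tested.

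The members, the 32 gene lists and the named genes were chosen with earlier results of these data known. Genes were named by rule: the highest means, the largest and smallest SDs, the genes apart on an array, the largest scan day differences and the leading, most variable and dimmest members of each list. Of the 174 named from the table of values by array, 19 lay outside the rule, among them Retnla, Mmp12, Siglecf, Pparg, the clock genes and the splicing genes, and further list members are named from their lists. Alternatives changed the normalization, pseudocount, filter, background, probe set, variance model and arrays used.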

Additional observations from a re-analysis of the deposited data

Results flagged for a closer look

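In 212 sets of 6 values, 18 had a highest or lowest array whose gap to the next exceeded Dixon's 95% critical share of the range. Chance alone marks about 1 in 20 groups that are chosen without regard to their values. Some of these genes were named for a large SD or for 1 array apart, so that rate does not hold here. No excess can be read from the count.

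Control 36 had the highest log2 signal of S100a8 (12.48), S100a9 (10.71), Wfdc21 (14.35), Fscn1 (10.56) and Car4 (14.31) and the lowest of Mt1 (13.93). Control 37 had the lowest Hnrnpab (12.11) and Pcna (13.80), the latter 0.13 under the next array, and the highest Napsa (12.27). Control 14 had the lowest Bhlhe41 (5.90, on the brighter of its probe sets only) and the highest Fth1 (15.82). Control 33 had the highest Ccl24 (9.23), a chemokine for eosinophils that was at 4.68 to 5.73 elsewhere, and the lowest Sftpb (7.66).

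Among lists, control 14 had the lowest median percentile of alveolar type 2 genes (41.4), alveolar type 1 genes (24.8) and oxidative phosphorylation genes (96.8). Control 14 also had the highest background (a signal of 181). Control 36 had the lowest median percentile of ribosomal protein genes (99.5). The 18S ribosomal RNA control signal was highest on control 33 (35187).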

How the results depend on the processing

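Depth of signal over background limits dim genes most: the dimmest 2821 genes held 1135 of the 1321 of 4-fold range. The count of 108 genes differing between scan days was 3 without a variance trend, 69 at a 2-fold minimum, 181 with a filter at the 40th percentile and 22 with the mean of all probe sets, and from 3 to 1465 with an array left out. Without control 6_13 or 14 the lone array of scan day 1 is assumed to vary like the others. Of the 108, 79 were also called after quantile normalization. Genes apart on 1 array were 43 in all, 255 with a pseudocount of 1, 8 with 50 and 23 with the mean of all probe sets, where 60 of the 100 brightest and 64 of the 100 of largest SD were shared. With a pseudocount of 1, 54 of the 100 of largest SD were shared, and 64 to 79 with an array left out. With the mean of all probe sets the median percentile was 99.2 for the alveolar macrophage list, 98.2 for general macrophage, 53.6 for neutrophil and 69.6 for airway secretory genes, and 96.8 for general macrophage genes with probe sets of unique suffix. The mean level of 58 of the 174 genes named from the table of values moved by over 1 SD with the mean of all probe sets and of 20 with unique suffixes, among them Lyz1, Fcgr2b and Fabp4, and of 0 with quantile normalization or an array left out. The cause was not tested. No paired analysis was possible because no groups of arrays sharing label numbers were compared.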
